A study of Homo sapiens with 8 samples.

Results

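This account follows 7 noncoding RNAs, SCARNA2, MALAT1, NEAT1, RN7SK, RMRP, RPPH1 and TERC, through the peaks of 2 RNA-binding proteins, TIA1 and RBFOX2, in HEK293T cells. A deposited peak was taken as belonging to an RNA when it shared at least 1 base with that RNA's hg19 kilobase span on the gene strand. This gave 16 peaks of 7442 in the series, all 16 of them TIA1 peaks at SCARNA2. The other 6 RNAs had no peak called for either protein, and SCARNA2 had none for RBFOX2. The 7 RNAs were chosen by name with the deposited peaks, folds and −log10 p of both lists in view, so the counts and folds below are descriptions and carry no test. The lists give no RNA level, so whether the 7 RNAs were abundant in these cells was not measured.

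HEK293T cells are a human kidney-derived line in which the SV40 large T antigen is expressed. RNA bound to each protein was recovered by eCLIP, in which ultraviolet light crosslinks RNA to protein before immunoprecipitation and sequencing. There were 8 libraries in 4 groups of 2 replicates: TIA1 clip, TIA1 input, RBFOX2 clip and RBFOX2 input. Clip libraries were pulled down with an anti-HA tag antibody, so the bait was a tagged protein. Input libraries were made without pull-down. Cells of every group were crosslinked with 600 mJ. A shared protocol text mentions TIA1-bound beads for RBFOX2 libraries too, and the labels leave it unsettled whether the replicates are biological or technical. The authors deposited 1 list per protein, tied to all 4 of its libraries, with 3215 TIA1 peaks and 4227 RBFOX2 peaks. Each peak has a log2 fold, read as clip over input, and a −log10 p. Both are the authors' values, the depth behind them is unknown, and no value per replicate is given.

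SCARNA2 is a small Cajal body RNA, a class of guide RNAs that direct chemical modification of spliceosomal snRNAs in the nucleus. MALAT1 and NEAT1 are long nuclear RNAs, associated with speckles and with paraspeckles, for which NEAT1 is the scaffold. RN7SK holds the transcription elongation factor P-TEFb in an inactive complex. RMRP and RPPH1 are the RNA subunits of the RNases MRP and P, and TERC carries the template of telomerase. TIA1 is known for preferring U-rich RNA, and RBFOX2 for binding GCAUG.

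The SCARNA2 sequence is shown first, because it is the only one of the 7 RNAs with peaks. The transcript of GENCODE release 29 has 420 bases and lies at chr1:109100193-109100612 on the plus strand of GRCh38. The part shown was cut by T content and not by the peaks. It runs from the 5′ end to the end of its T-richest 50-base window, and the rest of the transcript is not shown. T stands for U in the RNA. Capitals mark the longest T run and every GTGT.
SCARNA2 bases 1 to 199: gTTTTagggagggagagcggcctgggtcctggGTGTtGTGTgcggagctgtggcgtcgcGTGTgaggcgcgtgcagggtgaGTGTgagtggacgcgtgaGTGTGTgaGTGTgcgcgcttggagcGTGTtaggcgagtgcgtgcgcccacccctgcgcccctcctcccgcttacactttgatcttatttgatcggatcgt

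The peaks are placed in hg19 and this transcript in GRCh38, so no peak was placed on a base of the sequence. Sizes can still be compared. The 16 peaks ran from position 109642956 to 109643152 on the plus strand of hg19 chromosome 1, a stretch of 197 bases, and covered 145 of them. The stretch was as long as 46.9% of the transcript, and the covered bases as long as 34.5%. GENCODE also lists a gene named AL356488.2, of 427 bases, on the same strand of the same place. It holds every 30-base word of SCARNA2, so peaks here cannot be assigned to one gene and not the other. No 30-base word of SCARNA2 occurred in an annotated transcript at any other place.

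The peaks at SCARNA2 were strong by the authors' −log10 p and mixed by fold. Their log2 folds ran from 3.03 to 4.69, which is 8.15-fold to 25.8-fold more in TIA1 clip than in input, with a median of 3.98. The median of the whole TIA1 list was 3.36, and some of the SCARNA2 peaks lay below it. Weighted by peak width, the mean log2 fold over the SCARNA2 site was 3.79. Of the 16 peaks, 7 had log2 folds of 4 or more, where 9.21% of the TIA1 list did. The −log10 p stood at its upper limit of 400 in 15 of the 16, where 2.02% of the list stood. Because the rule was written with this site in view, these shares describe it and are not evidence that it stands apart.

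Within SCARNA2 the peaks formed 2 blocks, a division made after the gaps between peaks were seen. The first block, at the 5′ side, held 5 peaks from 109642956 to 109643009. The second held 11 peaks from 109643051 to 109643152. A gap of 41 bases with no peak lay between them, and the next largest gap was 6 bases. The peak before the 41-base gap had a log2 fold of 3.03, and 4.3% of the TIA1 list had a lower one. The peak after it had 3.24, and 35.9% of the list had a lower one. Signal in the gap under the authors' thresholds would not be seen, so the blocks describe listed peaks only. All 7 peaks of log2 fold 4 or more lay in the second block and covered 50 of its 93 peak bases. Weighted by peak width, the mean log2 fold was 3.40 in the first block and 4.01 in the second.

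The first block rose to a small maximum, and its last listed peak had a much lower fold. Its opening peak, only 2 bases long from 109642956 to 109642957, reached 3.20 on the log2 scale. Its −log10 p was 82.1, the only one of the 16 below the limit. The next, 25 bases at 109642958 to 109642982, was the widest peak of the site and had a log2 fold of 3.32. The third, at 109642984 to 109642990, had 3.90, and the one at 109642992 to 109642997 had 3.98, the highest of the block. The last, at 109642998 to 109643009, began at the very next base and had a log2 fold of 3.03. The log2 fold thus fell by 0.95 between abutting peaks, to the lowest of the whole site.

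The second block had a broad crest with lower folds on both sides. Its opening peak at 109643051 to 109643058 reached 3.24 on the log2 scale. The next peak, at 109643065 to 109643068, had 4.19, a step of 0.96 and the largest step between neighbours at the site. The peak at 109643070 to 109643076 had 4.50. The crest was a 16-base peak from 109643078 to 109643093, whose log2 fold of 4.69 ranked 39 among the 3215 TIA1 peaks. The peak at 109643094 to 109643100 then had 4.48, and the one at 109643101 to 109643108 had 4.54, ranked 60.

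Past the crest the folds declined toward the 3′ side without a break larger than 1 base. On the log2 scale the peak at 109643109 to 109643112 had 4.43, and the one at 109643114 to 109643117 had 4.26. The 13-base peak at 109643118 to 109643130 had 3.98. The peak at 109643131 to 109643145 had 3.20, and the final one at 109643146 to 109643152 had 3.05. The end of the block thus lay close to a log2 fold of 3, the lowest in the list, and lower folds further out would not be seen.

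**Figure D1:**
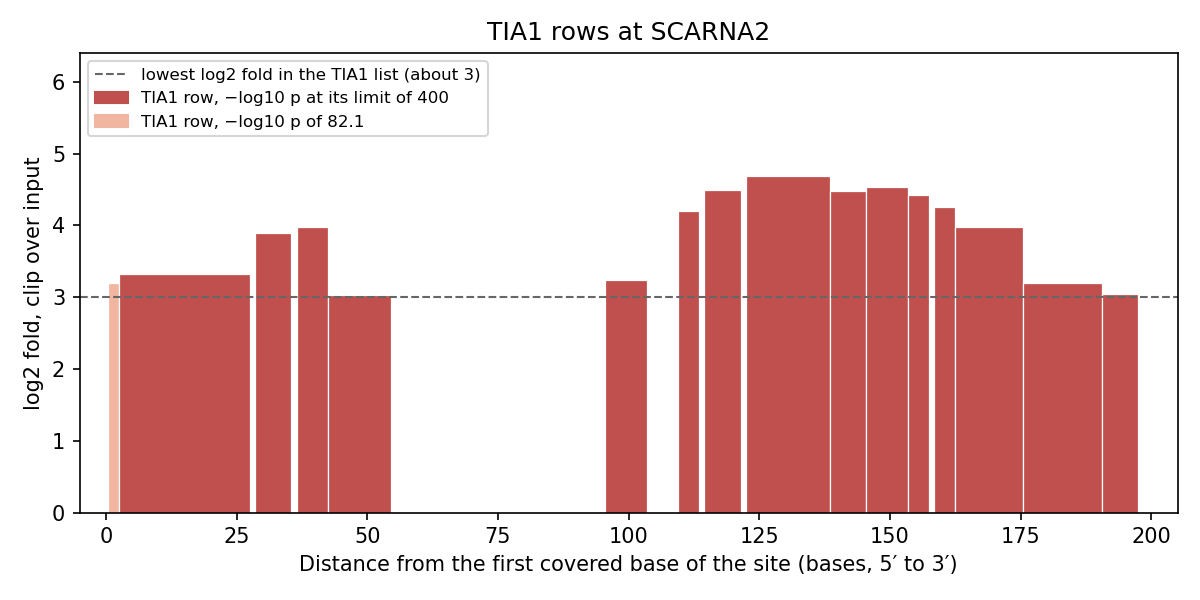
The log2 fold of TIA1 clip over input (vertical axis) is drawn for each of the 16 peaks at SCARNA2 against the distance in bases from the first covered base (horizontal axis), each bar as wide as its peak. The first 5 peaks reach 3.98 at most, a gap of 41 bases follows, and the later 11 peaks crest at 4.69 and decline to 3.05.

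The site was cut into very short peaks. Widths ran from 2 to 25 bases with a median of 7, against a median of 61 bases over the TIA1 list. Of the 16 peaks, 15 were under 20 bases wide, where 18.8% of the TIA1 list was. In 8 places neighbouring peaks abutted with no base between them, and in 5 places a single base lay between neighbours. Short peaks were also common among the other TIA1 peaks at the −log10 p limit. The 50 of these at other sites had a median width of 22 bases, a median log2 fold of 3.73 and log2 folds from 3.07 to 5.48. The 15 at SCARNA2 had a median width of 7 bases and a median log2 fold of 3.98. Since many of its peaks abut, the 16 at SCARNA2 are read here as pieces of one region and not as separate measurements of it. The shares of the 16 given above are counts of such pieces.

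**Figure D2:**
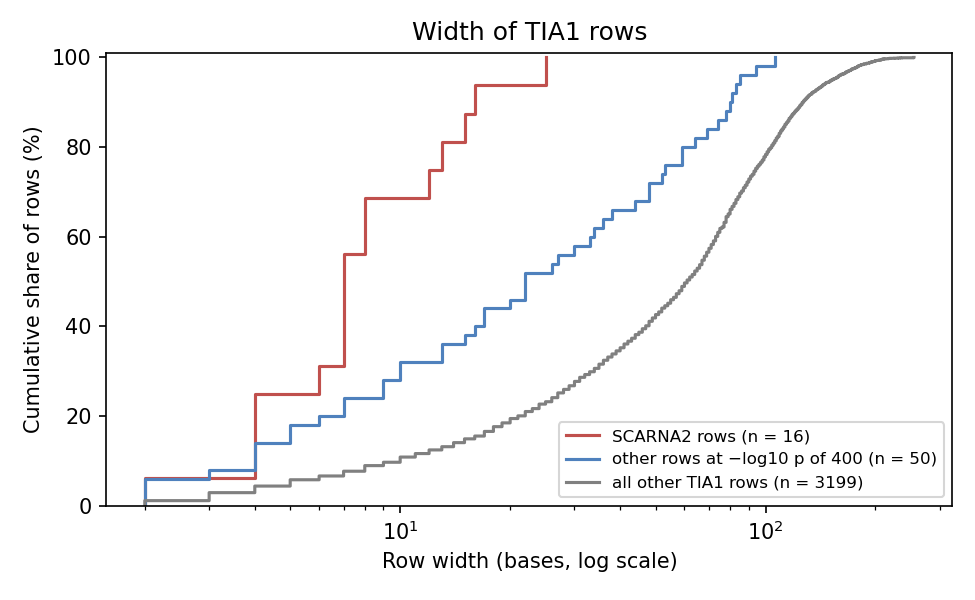
The cumulative share of TIA1 peaks (vertical axis, percent) is drawn against peak width in bases (horizontal log axis) for the 16 SCARNA2 peaks, the 50 other peaks at a −log10 p of 400 and all 3199 other TIA1 peaks. The SCARNA2 curve lies furthest left from 4 bases upward and is complete at 25 bases.

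With peaks within 50 bases joined, the TIA1 list became 2413 sites, and SCARNA2 became 1 of them. No other TIA1 site held as many peaks or as many at the −log10 p limit. The next held 10 peaks, and the next by peaks at the limit held 7. SCARNA2 held 15 of the 65 limit peaks in the list, or 23.1%, and the other 50 were spread over 19 sites. By its highest log2 fold it ranked 32 of 2413, so 31 sites had a higher one. Among the 24 sites with at least 5 peaks, 4 had a higher one. SCARNA2 made up 0.498% of TIA1 peaks and 0.0690% of the bases they covered.

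The sites most like it in number of peaks are given by position, since the sources used here hold no hg19 gene names. On the plus strand of chromosome 20, from 57466450 to 57466631, 10 TIA1 peaks had log2 folds from 3.40 to 4.51, and 3 of them stood at the limit. That site also had no RBFOX2 peak. On the plus strand of chromosome 9, from 131451527 to 131451841, 9 peaks had log2 folds from 3.16 to 4.84 and 5 stood at the limit. On the plus strand of chromosome 6, from 26156595 to 26156705, all 7 peaks stood at the limit, with log2 folds from 3.09 to 4.05. The chromosome 9 and chromosome 6 sites overlapped sites of RBFOX2 peaks that were joined within 50 bases in the same way. Peaks were packed at 8.12 per 100 bases at SCARNA2, 5.49 at the chromosome 20 site, 2.86 at the chromosome 9 site and 6.31 at the chromosome 6 site.

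A minus-strand site on chromosome 21, from 34143760 to 34144070, also held 7 peaks, none of them at the limit, with a highest log2 fold of 6.13. In the RBFOX2 list the site of most peaks held 23, on the plus strand of chromosome X from 77359333 to 77359820. None of those 23 reached the limit, and their highest log2 fold was 4.32.

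**Figure D3:**
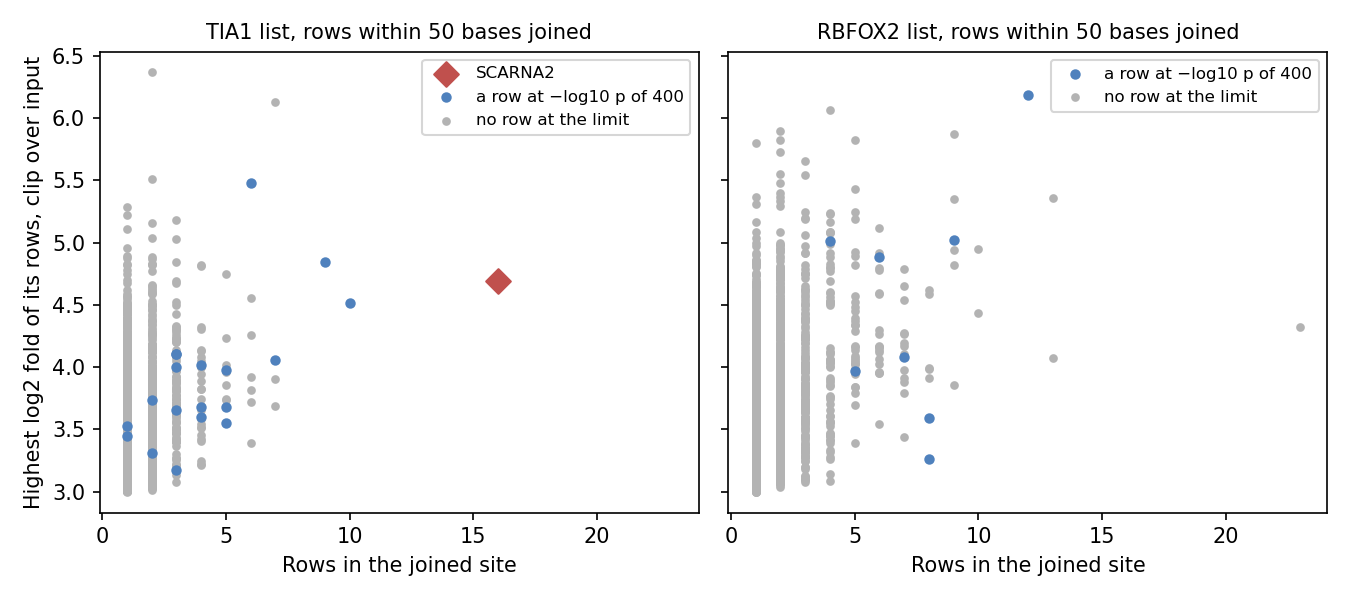
Each point is a site of peaks joined within 50 bases, placed by its number of peaks (horizontal axis) and the highest log2 fold of clip over input among them (vertical axis), for TIA1 on the left and RBFOX2 on the right, with sites that hold a peak at a −log10 p of 400 in blue. SCARNA2 lies furthest right in the TIA1 panel, at 16 peaks and 4.69, and has no point in the RBFOX2 panel.

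RBFOX2 had no peak in the SCARNA2 span, so 0 of the 16 TIA1 peaks there overlapped one, where 24.0% of the TIA1 list did. The 16 are pieces of 1 joined site, so this is a result for a single site. The share of overlap over joined sites was not computed. The RBFOX2 peak nearest to the span on the strand lay 148.7 kb away. Since the RBFOX2 list holds only peaks past the authors' thresholds, a weaker RBFOX2 signal at SCARNA2 would not be seen. The difference between the proteins at SCARNA2 was not tested, because each list joins both replicates.

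MALAT1 and NEAT1, neighbours on the plus strand of chromosome 11 of hg19, had no peak called in either list. The TIA1 peak nearest to both on the strand lay at 65391813 to 65391827, 117.8 kb from the MALAT1 span, with a log2 fold of 3.31. The RBFOX2 peak nearest to both lay at 65383353 to 65383512, 109.4 kb from the MALAT1 span, with a log2 fold of 3.32. Neither list thus held a peak near these long nuclear RNAs on either strand.

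The small RNAs other than SCARNA2 had no peak called either. For RMRP, on the minus strand of chromosome 9, the nearest peak on the strand lay 90.1 kb away for TIA1 and 155.9 kb for RBFOX2. For RPPH1, on the minus strand of chromosome 14, it lay 869.2 kb away for TIA1 and 866.9 kb for RBFOX2. For RN7SK, on the plus strand of chromosome 6, it lay 5414 kb away for TIA1 and 9122 kb for RBFOX2. For TERC, on the minus strand of chromosome 3, it lay 12058 kb away for TIA1 and 7256 kb for RBFOX2. Across the 7 spans no peak lay on the opposite strand (0), and none lay within 10 kb outside a span on either strand (0). Peaks are listed only above a log2 fold of 3, so no peak called does not mean that no RNA was bound.

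The RNAs also differ in how much of their sequence recurs in other annotated transcripts. For RN7SK, 90.6% of its 30-base words occurred in annotated transcripts at other places, spread over 111 genes. For NEAT1 the share was 2.0%. For SCARNA2, MALAT1, RMRP, RPPH1 and TERC it was 0%. Copies outside annotated transcripts were not searched, so 0% does not show that a read fits nowhere else in the genome. The sources used here do not say how reads with several possible places were handled, and the part of this in the lack of a RN7SK peak was not tested.

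Sequence gave a measure that the choice of RNAs did not use. T runs and GCATG were counted on the transcript strand of the longest GENCODE transcript of each RNA. SCARNA2 was 20.7% T, and among 5568 other GENCODE transcripts within 5% of its length the median was 23.8%. Its longest T run was 4 bases, near its 5′ end, so it held no TTTTT, which 36.8% of those transcripts held. It held no GCATG, which 31.8% held. In its T-richest 50-base window, bases 150 to 199, 34.0% were T.

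The long RNAs with no TIA1 peak were richer in T than SCARNA2. MALAT1 was 29.3% T, with 40 separate runs of at least 5 T and a longest run of 13. NEAT1 was 31.7% T, with 89 such runs and a longest run of 16. Their T-richest 50-base windows held 56.0% and 74.0% T. The median T share of transcripts of like length was 27.4% for MALAT1 and 28.2% for NEAT1. Of those transcripts, 67.5% and 66.7% had a lower T share. Runs of this kind are usual at such lengths, since TTTTT occurred in 99.2% of transcripts of MALAT1's length and in all 9 of NEAT1's (100%). TERC was 18.7% T with 2 runs of at least 5 T and a longest run of 6, and 40.8% of transcripts of its length held TTTTT. RN7SK at 22.0% T, RMRP at 19.4% and RPPH1 at 16.8% had no run longer than 3 bases. Median T shares at like length were 23.2% for TERC, 23.7% for RN7SK, 23.1% for RMRP and 23.7% for RPPH1.

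GCATG occurred 8 times in MALAT1, 27 times in NEAT1 and once in RN7SK, and RBFOX2 had no peak in any of them. It occurred in 99.8%, 100% and 27.8% of transcripts of the same lengths. The stretches below show, in capitals, the longest T run of MALAT1, NEAT1 and TERC and the GCATG of RN7SK. They are examples from RNAs with no peak, and the GCATG copies of MALAT1 and NEAT1 are not shown. All stretches are on the transcript strand, from GENCODE release 29 on GRCh38, with up to 30 bases on each side.
MALAT1 bases 6518 to 6590: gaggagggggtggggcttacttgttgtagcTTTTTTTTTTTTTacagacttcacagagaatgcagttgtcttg
NEAT1 bases 19300 to 19375: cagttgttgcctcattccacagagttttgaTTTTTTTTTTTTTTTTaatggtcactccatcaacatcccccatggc
TERC bases 8 to 73: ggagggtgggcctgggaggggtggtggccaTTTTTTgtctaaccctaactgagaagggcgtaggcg
RN7SK bases 277 to 328: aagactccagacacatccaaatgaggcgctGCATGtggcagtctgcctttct

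**Figure D4:**
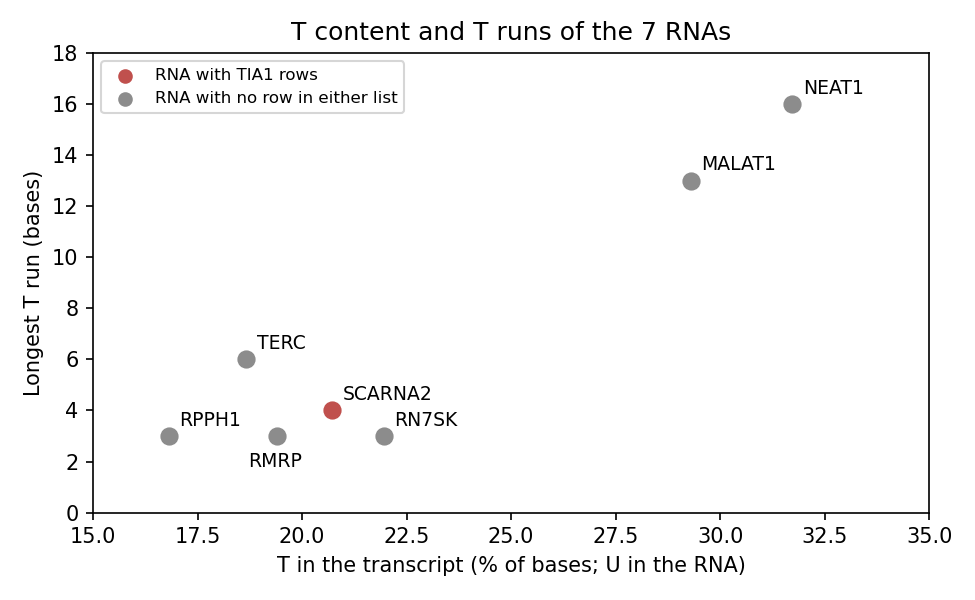
Each of the 7 RNAs is placed by the share of T in its transcript (horizontal axis, percent of bases) and its longest T run (vertical axis, bases), with SCARNA2 in red and the 6 RNAs with no peak in grey. SCARNA2, at 20.7% T and a run of 4, lies among the small RNAs, while MALAT1 and NEAT1 lie at the upper right.

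SCARNA2 was 36.7% G, the highest share of the 7 RNAs, and 65.5% G or C. Among the small RNAs with no peak, RPPH1 was 34.2% G and 64.6% G or C, and TERC was 34.0% and 66.7%. RMRP was 28.4% and 63.1%, and RN7SK was 28.0% and 58.2%. GTGT was searched on the transcript strand after the sequence had been seen. In SCARNA2 it occurred 8 times with overlapping copies counted, in 7 separate stretches between bases 33 and 128. As many copies were found in 0.557% of the 5568 transcripts of like length. Because the word was picked from this same sequence, a low share follows from the choice and is not evidence about TIA1. MALAT1, with no peak, held 38 copies in 8708 bases, and 38.8% of transcripts of its length held as many. NEAT1, also with no peak, held 200 copies in 22743 bases, which 0 of the 9 transcripts of its length reached. RN7SK and RMRP held 1 copy each, and RPPH1 and TERC held 0. Among the 49 scaRNA transcripts of GENCODE release 29, SCARNA2 was the longest, against a median of 137 bases. TTTTT occurred in 12 of the 49, or 24.5%, and GCATG in 7, or 14.3%. A motif match is a description of letters and not a binding site, and without hg19 sequence it was not determined which of these letters the peaks cover.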

How the data were processed

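The authors deposited 1 peak list per protein, with no header, in hg19. Per the labels' protocols, an eCLIP pipeline was used. The submitters' processing notes name STAR 2.4.0i, SAMtools 1.6, cutadapt 1.14 and UMI-tools 1.0.0. The sources used here do not name a peak caller. The deposited −log10 p-value runs from 3.01 to 400 in both lists. The deposited log2 fold starts at about 3 and ends at 6.37 for TIA1 and 6.19 for RBFOX2. Both units were inferred from these ranges.

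Coordinates are 1-based. The annotation at hand is GRCh38, so it was used only for sequences and was not set against peak positions. Counts, widths, ranks, joining within 50 bases and overlaps of 1 base on the strand were computed with Python 3.11.15, pandas 2.3.3 and numpy 2.4.6, and figures with matplotlib 3.10.9. Counting was tested on simulated data. The naming rule covered all 7 RNAs and, at SCARNA2, the first and last peak and the 3 highest by fold and by −log10 p. The remaining SCARNA2 peaks were added after their values were seen. The members and lists were chosen with earlier results of these data known. A planned list of other noncoding RNAs needed hg19 names and was not analysed here.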

Additional observations from a re-analysis of the deposited data

How the results depend on the processing

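The 16 TIA1 peaks, all at SCARNA2, numbered 16 under 6 of 10 alternatives: a −log10 p of at least 5 or 10, peaks wholly inside the span, spans to the end of the last kb, and spans widened by 1 or 10 kb. Both −log10 p limits left 16 by construction, since the lowest −log10 p of the 16 was 82.1. A log2 fold of at least 4 left 7 and joining within 50 bases left 1, by construction. Peaks of at least 20 bases left 1, with a highest and median log2 fold of 3.32 against 4.69 and 3.98. The median was 4.69 after joining, which takes the highest fold of a site. The opposite strand held 0. Joining within 10 bases, added after seeing the data, gave 2 blocks. The RBFOX2 count, the counts at the other 6 RNAs and the overlap with RBFOX2 were 0 under every alternative run for them. For most alternatives this was fixed in advance, since removing or joining peaks cannot raise a count of 0. With no RBFOX2 peak in the SCARNA2 span, the overlap was fixed at 0 too. Only longer or wider spans and the opposite strand could have changed the counts. No paired analysis was possible because the lists hold only values joined over the replicates, which also means that neither replicate could be dropped. The depth is unknown and values under the authors' thresholds are not seen.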
